A study of Arabidopsis thaliana with 4 samples.

Results

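Unheated Arabidopsis thaliana seedlings that overexpress the microRNA miR164 (miR164OE) were compared with unheated wild-type (WT) seedlings. Both were of ecotype Col-0, were sampled as whole seedlings and grew at 22 °C, and each was sequenced as 1 RNA library. The promoter that drives the transgene, the number of lines and the age of these unheated seedlings are not given in the labels used here. A second pair of libraries, miR164OE and WT seedlings moved at 5 days of age to 35 °C for 5 days, gave values that played no part in choosing the rows. The rows described averaged 20 FPKM or more over both unheated libraries and had a locus of at least 300 bases. There were 2308 such rows among 32823. FPKM is the number of fragments per length of transcript and per number of mapped fragments, so levels can be compared between rows. A difference is log2(FPKM + 1) in miR164OE minus log2(FPKM + 1) in WT, and a row is counted as higher or lower once the difference reaches 1 or -1, a 2-fold change. With 1 library per group there was no test, and every difference is between single libraries.

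MicroRNAs of the miR164 family pair with a site in the transcripts of several NAC transcription factors and direct their cleavage. Through CUC1 and CUC2 they limit the boundary domains between organs, through NAC1 they act in lateral root formation, and through ORE1 they delay leaf senescence. The sequences of the microRNAs and of their sites are shown because every transcript that the microRNA is known to cut carries such a site. They were read from the TAIR10.1 genome at the RefSeq annotation's coordinates and are written 5′ to 3′. The mature microRNAs share the seed in capitals, bases 2 to 8, and lie at chr2:19520770-19520790, chr5:287586-287606 and chr5:9852684-9852704, all on the plus strand.
miR164a: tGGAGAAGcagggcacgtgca
miR164b-5p: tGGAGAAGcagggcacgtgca
miR164c-5p: tGGAGAAGcagggcacgtgcg

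In the sites of the targets, capitals mark bases that form no Watson-Crick pair with miR164a. The site of NAC1 lies at chr1:20947142-20947162 on the minus strand and that of CUC1 at chr3:5111137-5111157 on the plus strand. The ORE1 site lies at chr5:15858797-15858817 and the NAC100 site at chr5:24701687-24701707, both on the minus strand.
NAC1: AgcacgtAccctgcttctcca
CUC1: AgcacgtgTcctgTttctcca
ORE1: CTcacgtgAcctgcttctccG
NAC100: tCTacgtgccctgcttctcca

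Neither the microRNA nor most of its targets could be followed in these libraries. MIR164A, MIR164B and MIR164C, short precursor genes, were listed at 0 FPKM in all 4 libraries, and the overexpressed gene therefore gave no check of the labels. CUC1, CUC2, NAC080 and NAC100 were listed at 0 in all 4 as well. The part of depth and of strand handling in these zeros was not tested. ORE1 was listed at 0 FPKM in miR164OE and at 2.73 FPKM in WT, which is about 1.77 estimated fragments. AT3G12977, a further NAC gene with a site, was listed at 5.27 FPKM in miR164OE and at 0 in WT. NAC1 had 11.005 FPKM in miR164OE and 5.43 FPKM in WT, or about 14.6 and 7.01 estimated fragments. None of these rows reached the 20 FPKM minimum.

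The row AT1G08087 was the one row above the minimum at any of these genes. It lies on the strand opposite NAC1, over 809 of its bases, and had 49.2 FPKM in miR164OE and 35.9 FPKM in WT, a difference of 0.44 on about 20.2 and 14.4 fragments. In the heated libraries it had 65.7 FPKM in miR164OE and 96.2 FPKM in WT. A search of 37880 annotated genes for the miR164a site, allowing up to 3 mismatches over 21 bases, found 6 genes, all of the NAC family. None of the 2297 rows above the minimum that could be searched carried a site within that limit, which the ORE1 site, with 4 mismatches, exceeds.

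Most rows differed little between miR164OE and WT. The median difference was 0.02, with quartiles of -0.29 and 0.36, and 64.0% of the 2308 rows lay within 0.5 of 0. Median levels were 82.0 FPKM in miR164OE and 79.8 FPKM in WT. Of the rows, 194 (8.41%) were at least 2-fold higher in miR164OE and 183 (7.93%) at least 2-fold lower, 377 (16.3%) in all. Both directions were thus of nearly equal size. By the same rule, 14.5% of 2523 rows passed 2-fold between miR164OE and WT in the heated libraries (6.86% higher and 7.61% lower), and 45% of 2451 rows between heated and unheated WT. In whole seedlings, fewer cells of a type and less RNA per cell cannot be told apart.

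**Figure D1:**
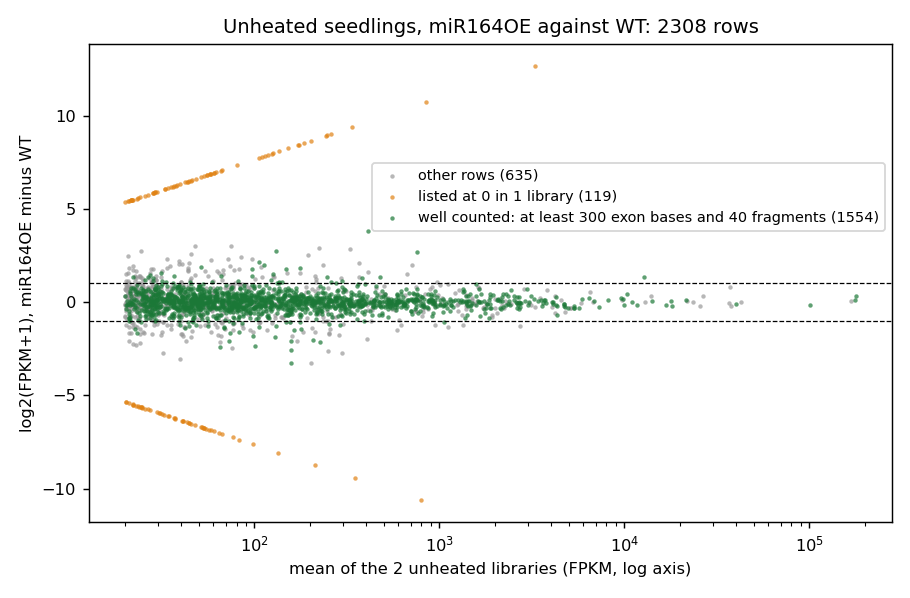
Each point is 1 row, with the mean FPKM of both unheated libraries on a log axis and the difference of log2(FPKM + 1), miR164OE minus WT, on the other; dashed lines mark 2-fold. The outer arms are the 119 rows listed at 0 in 1 library, while the 1554 rows with at least 300 exon bases and 40 estimated fragments mostly lie between the lines.

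The share past 2-fold was higher on shorter rows. One fragment was worth about 1.97 FPKM in miR164OE and 2.02 FPKM in WT on a transcript of 1000 bases. Taken at face value, this puts the libraries near 508000 fragments in miR164OE and 495000 in WT. The fragments estimated for single rows add up to more than that in both libraries, so both kinds of estimate are rough. Of rows with under 200 exon bases 52.3% passed 2-fold, of rows with 1000 to under 2000 exon bases 7.12%, and of rows with 2000 or more 0.662%. A library value of 0 accounted for 119 of the 377 rows past 2-fold (31.6%). Of these, 52 were listed at 0 in miR164OE and 67 at 0 in WT, and 83 of them had under 300 exon bases. Long noncoding RNA rows passed 2-fold in 23.3% of 829 cases and protein-coding rows in 11.02% of 1407.

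**Figure D2:**
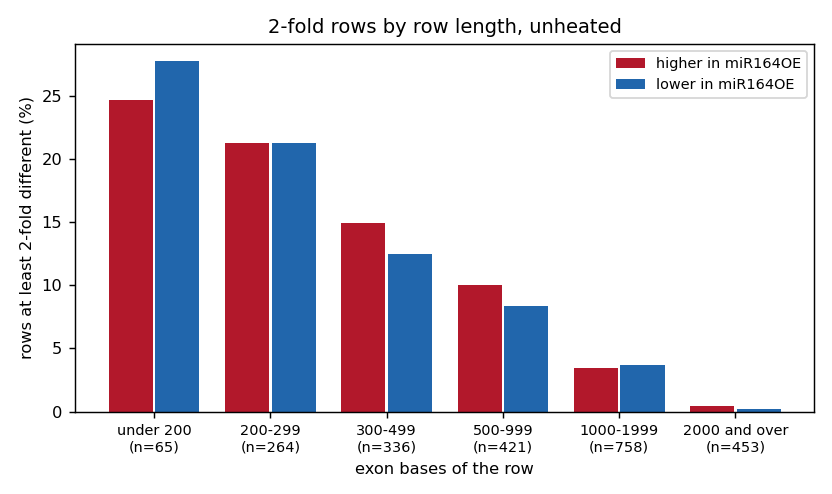
Bars give the percentage of rows at least 2-fold higher (red) or lower (blue) in miR164OE than in WT, for 6 classes of exon length with the number of rows under each. Both shares fall with length, from over 20% below 300 bases to under 1% at 2000 bases and more.

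A set of 1554 well-counted nuclear rows, with at least 300 exon bases and at least 40 estimated fragments over both unheated libraries, was set apart after the values had been seen. Rows named outside it are shorter, of an organelle or hold fewer fragments. In the set, 38 rows (2.45%) were at least 2-fold higher in miR164OE and 39 (2.51%) at least 2-fold lower, 77 in all (4.95%), and 76.3% lay within 0.5 of 0. Among the 1110 of them that face a gene on the opposite strand, 29 (2.61%) were higher and 25 (2.25%) lower, 54 in all (4.86%). A second fact bears on every name. Of the summed FPKM of all 2308 rows, those that overlap a gene on the opposite strand held 96.6% in miR164OE and 96.4% in WT. A value is therefore given either for a gene's own row or for a row on the strand opposite the gene. For 137 pairs of well-counted rows that face each other over at least 100 bases, 66 had differences of the same sign. Either row passed 2-fold in only 6 of the 137 pairs, so it says little that both passed in 0. How the strand of fragments was treated is not given in the sources used here. Which gene an opposite row measures was not tested. At the photosystem I subunit gene PSAG, the own row had 34.3 FPKM in miR164OE and 19.7 FPKM in WT. The row opposite PSAG had 182750 FPKM in miR164OE and 171972 FPKM in WT. An own-row value may thus hold little of the gene's RNA, and is given as the value of that row only.

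The widest difference of a well-counted row lay at a group of related genes on chromosome 4. These genes, AZI1, EARLI1, AIR1, AIR1B and their neighbours, encode small secreted proteins with a proline-rich stretch and a lipid-transfer domain. AZI1 is known for its part in systemic immunity, and AIR1 was first found as induced by auxin in root cultures. The row AT4G12543 (7434094 to 7434642, minus strand) lies opposite AIR1B over 380 of its 423 exon bases. It had 772 FPKM in miR164OE and 53.6 FPKM in WT, a 14.4-fold difference on about 166 and 11.2 estimated fragments. The row AT4G12555 (7439164 to 7440116, minus strand) lies opposite AIR1 over 285 of its 321 exon bases. It had 1308 FPKM in miR164OE and 204 FPKM in WT, 6.42-fold higher. Both were also higher in miR164OE among the heated libraries, which the choice of these rows did not use. There AT4G12543 had 2518 FPKM in miR164OE and 775 FPKM in WT, and AT4G12555 had 4030 FPKM in miR164OE and 859 FPKM in WT.

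The sequences of these rows show how alike both loci are. Aligned stretches of 179 bases lie at chr4:7434408-7434586 and chr4:7439333-7439511 on the minus strand (TAIR10.1, RefSeq annotation), and capitals mark the bases that differ.
AT4G12543: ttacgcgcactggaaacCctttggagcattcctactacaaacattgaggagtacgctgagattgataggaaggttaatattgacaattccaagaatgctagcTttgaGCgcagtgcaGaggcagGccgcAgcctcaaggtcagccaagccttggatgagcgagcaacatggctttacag
AT4G12555: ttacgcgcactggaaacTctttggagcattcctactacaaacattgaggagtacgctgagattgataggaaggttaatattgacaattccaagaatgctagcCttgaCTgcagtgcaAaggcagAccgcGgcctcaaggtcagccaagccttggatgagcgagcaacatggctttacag
Of the 179 bases 172 are identical (96.1%), with the longest identical run 84 bases. Fragments from either locus could thus have been counted on the other, and the split between both rows is uncertain.

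Other rows of the same genes did not move together. AIR1 and AIR1B themselves were listed at 0 FPKM in all 4 libraries. AZI1's own row had 7.03 FPKM in miR164OE and 36.8 FPKM in WT, 5.24-fold lower on about 3.09 and 15.8 estimated fragments. Among the heated libraries the order was the other one, with 35.2 FPKM in miR164OE and 8.02 FPKM in WT. EARLI1, a cold- and salt-responsive member, was listed at 0 in miR164OE and at 3.54 FPKM in WT, about 1.63 fragments, and at 36.7 FPKM in miR164OE and 7.09 FPKM in WT after heat. The row AT4G12495, of 282 bases inside AT4G12490 on the opposite strand, had 812 FPKM in miR164OE and 1888 FPKM in WT, a difference of -1.22. After heat it had 12002 FPKM in miR164OE and 5998 FPKM in WT. AT4G12500, AT4G12510 and AT4G12520 were listed at 0 throughout. AT4G12530 had 3.54 FPKM in miR164OE, about 1.31 fragments, and 0 in WT, and after heat 48.2 FPKM in miR164OE and 73.3 FPKM in WT. The 2 rows opposite AIR1B and AIR1 were thus higher in miR164OE at both temperatures, while AZI1 and the row opposite AT4G12490 were lower in miR164OE at 22 °C and higher at 35 °C.

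**Figure D3:**
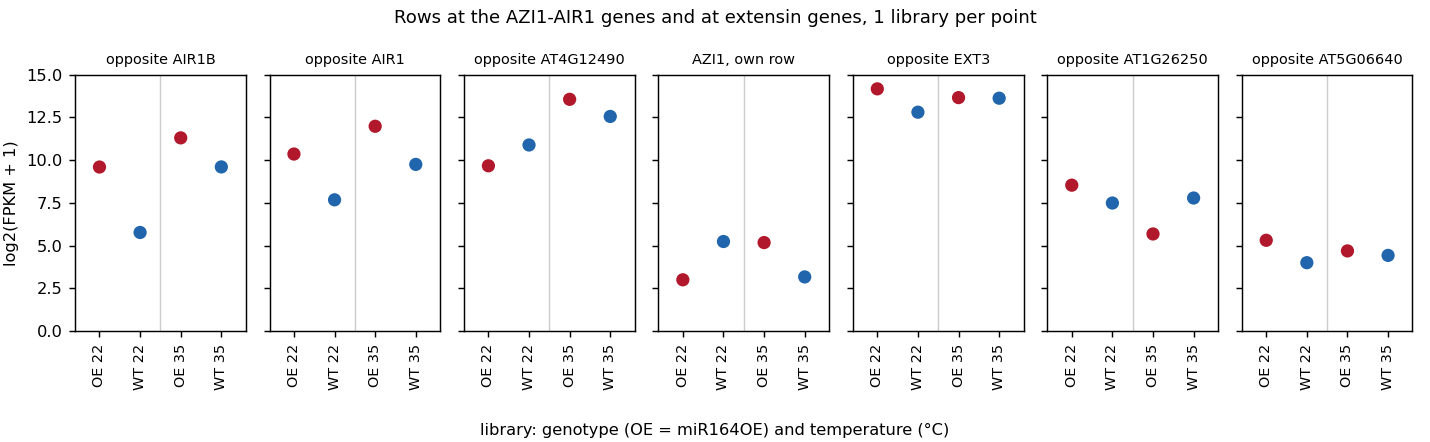
Each panel shows 1 row as log2(FPKM + 1) in the 4 libraries, miR164OE in red and WT in blue, unheated left and heated right of the grey line. The rows opposite AIR1B and AIR1 are higher in miR164OE in both pairs, and the row opposite AT1G26250 is higher in miR164OE unheated and lower heated.

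Rows at extensin genes were picked out from the cell wall list after their values were seen. Extensins are hydroxyproline-rich glycoproteins that cross-link into the cell wall network, and EXT3 is needed for an ordered wall at cell division. The row AT1G21313 (chromosome 1, 7453735 to 7454256) lies inside EXT3 on the opposite strand over 483 bases. It had 18345 FPKM in miR164OE and 7124 FPKM in WT, 2.58-fold higher on about 4498 and 1703 estimated fragments, the highest level of any row past 2-fold in either direction. EXT3's own row had 4.44 FPKM in miR164OE and 9.86 FPKM in WT, on about 3.73 and 8.07 fragments. The row AT1G26255 lies opposite the proline-rich extensin-like gene AT1G26250 over 1443 bases and had 370 FPKM in miR164OE and 179 FPKM in WT. The row AT5G06645 lies opposite EXT10 over 617 bases and had 38.8 FPKM in miR164OE and 15.05 FPKM in WT, on about 12.1 and 4.6 fragments. These 3 were all opposite rows.

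The heated libraries differed from this. The EXT3-opposite row had 12867 FPKM in miR164OE and 12553 FPKM in WT after heat, a difference of 0.04. The row opposite AT1G26250 had 50.4 FPKM in miR164OE and 219 FPKM in WT, a difference of -2.10. AT4G18596, a pollen allergen and extensin family gene, had an own row of 241 FPKM in miR164OE and 214 FPKM in WT at 22 °C. LRX2, a chimeric leucine-rich repeat and extensin protein of root hairs, had an own row of 25.4 FPKM in miR164OE and 47.1 FPKM in WT at 22 °C. No extensin row was thus at least 2-fold higher in miR164OE at both temperatures.

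Further wall-related genes, most of them outside the cell wall list and named after their values were seen, went both ways. CTL1, a chitinase-like protein needed for normal cellulose deposition, had 11.9 FPKM in miR164OE and 33.6 FPKM in WT, a difference of -1.43 with no overlapping gene, and a difference of 0.63 after heat. AGP19, an arabinogalactan protein, had 23.4 FPKM in miR164OE and 60.4 FPKM in WT, on about 8.85 and 22.3 fragments. CWLP, a proline-rich protein that links wall and plasma membrane, had 23.4 FPKM in miR164OE and 56.2 FPKM in WT on its own row, and 71.2 FPKM in miR164OE and 50.8 FPKM in WT after heat. The row opposite it, AT3G22121, was among the highest of all, with 95077 FPKM in miR164OE and 106072 FPKM in WT, a difference of -0.16. Its level was thus nearly the same while CWLP's own row was lower in miR164OE. GRP3S, a glycine-rich protein, had 19.7 FPKM in miR164OE and 111 FPKM in WT, a difference of -2.43, and one of -0.31 after heat. AT4G38300, a glycosyl hydrolase of family 10, had 54.4 FPKM in miR164OE and 205 FPKM in WT, with a difference of 0.12 after heat.

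Wall protein rows higher in miR164OE included AT4G38080, a hydroxyproline-rich glycoprotein, with 81.9 FPKM in miR164OE and 21.2 FPKM in WT. The glycine-rich protein AT4G33610 had 412 FPKM in miR164OE and 186 FPKM in WT on a row that no other gene overlaps. The row AT5G09595 lies opposite GMD1, an enzyme of GDP-fucose synthesis, over 1581 bases, and had 96.4 FPKM in miR164OE and 35.8 FPKM in WT. Across the cell wall list, chosen by words of the annotation's product names, own rows had a median difference of 0.06 with 0 of 28 higher and 1 lower. Rows opposite cell wall genes had a median of 0.11, with 3 of 21 higher and 1 lower. Over all rows the median was 0.02, with 8.41% higher and 7.93% lower.

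Lipid-transfer proteins, which bind lipids at the cell surface and take part in cuticle building, were read from both strands. Of 12 own rows of the cuticle and lipid-transfer list, 1 was at least 2-fold higher in miR164OE and 4 were lower, with a median of -0.02, against 8.41% higher and 7.93% lower over all rows. Of 5 well-counted own rows 3 were lower, against 2.51% of all well-counted rows. LTP7 had 13.4 FPKM in miR164OE and 28.4 FPKM in WT, a difference of -1.03, and one of 0.52 after heat. With a pseudocount of 5 FPKM the unheated difference of LTP7 was -0.86, short of 2-fold. AT1G62510, a lipid-transfer-like protein, had 95.5 FPKM in miR164OE and 201 FPKM in WT, with a difference of 0.15 after heat. AT4G22470, from the same family, had 27.8 FPKM in miR164OE and 60.1 FPKM in WT, but after heat 149 FPKM in miR164OE and 61.8 FPKM in WT. Of 16 rows opposite such genes, 2 were higher in miR164OE and 1 was lower, with a median of 0.07. One of them, AT4G22463 opposite AT4G22460 over 540 bases, had 142 FPKM in miR164OE and 52.4 FPKM in WT, while AT4G22460 itself was listed at 0 in both.

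**Figure D4:**
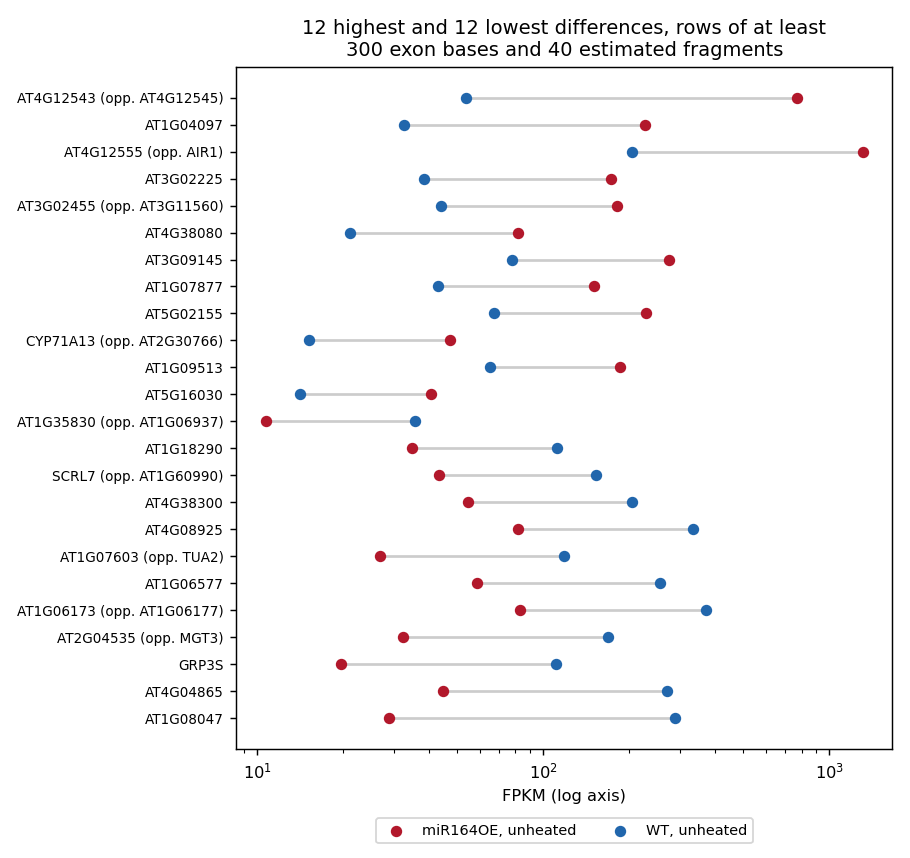
Each line joins the FPKM of 1 row in the unheated miR164OE (red) and WT (blue) libraries on a log axis, for the 12 highest and 12 lowest differences among the 1554 well-counted rows; a name in brackets is the gene opposite over at least 100 bases (AT4G12545 is AIR1B). AT4G12543 at the top had 772 FPKM in miR164OE and 53.6 FPKM in WT, and AT1G08047 at the bottom 28.8 FPKM in miR164OE and 288 FPKM in WT.

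The leaf senescence list bears on the ORE1 branch of the pathway. Only 4 of its 20 genes reached the minimum, with a median of -0.67, 1 at least 2-fold higher and 0 lower. Over all rows 8.41% were higher and 7.93% lower. WRKY53, a transcription factor that promotes leaf senescence, had 39.2 FPKM in miR164OE and 17.5 FPKM in WT, on about 30.2 and 13.1 fragments. Its row overlaps a gene on the opposite strand by 311 bases, and after heat the order was the other one, with 7.45 FPKM in miR164OE and 19.6 FPKM in WT. SEN1 (listed as STR15), a dark- and senescence-induced gene, had 46.9 FPKM in miR164OE and 92.4 FPKM in WT, a difference of -0.96. Of the 4 rows only that of WRKY53 was higher in miR164OE, while SEN1 and the remaining rows were lower. All are own rows, which may hold little of a gene's RNA.

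Further NAC genes and growth regulators were few above the minimum. Of 4 own NAC rows none passed 2-fold, against 16.3% of all rows, and the median of the 4 was -0.40. VNI2, a NAC factor that represses xylem vessel formation, had 22.3 FPKM in miR164OE and 32.2 FPKM in WT. The row AT2G02455 opposite LOV1, a NAC factor that delays flowering, had 328 FPKM in miR164OE and 538 FPKM in WT, a difference of -0.71. No own row of the boundary and meristem list, of 14 genes, or of the lateral root auxin list, of 16 genes, reached the minimum. The row AT5G13295 lies opposite CRN, a membrane pseudokinase of the meristem CLAVATA pathway, over 354 bases and had 258 FPKM in miR164OE and 522 FPKM in WT. It was also lower in miR164OE after heat, by a difference of -1.89. The row AT1G17065, opposite the brassinosteroid-inactivating CYP72C1 over 687 bases, had 184 FPKM in miR164OE and 87.5 FPKM in WT. Of the auxin list, 0 of 9 own rows passed 2-fold, and the 1 of 11 opposite rows that did was the AIR1 row. Over all rows the share was 16.3%, and over all well-counted rows 4.95%.

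The 6 most abundant rows differed little. The highest 3 lay opposite photosynthesis genes. AT2G08665, opposite LHB1B2, a light-harvesting protein of photosystem II, had 199133 FPKM in miR164OE and 158697 FPKM in WT. AT1G55673, opposite the photosystem I subunit gene PSAG, had 182750 FPKM in miR164OE and 171972 FPKM in WT. AT4G28755, opposite the photosystem I subunit gene PSAE-1, had 173586 FPKM in miR164OE and 164547 FPKM in WT. The others lay opposite CWLP, the plastid ribosomal protein gene PSRP5 and the plastid elongation factor gene RABE1b, and all 6 differed by at most 0.33 on the log2 scale. Summed over 10 rows opposite photosystem and antenna genes, miR164OE had 604992 FPKM and WT 536995 FPKM, with a median difference of 0.15. The 27 own rows of these genes had a median of -0.10, with 2 higher and 2 lower, against 8.41% higher and 7.93% lower over all rows. Of the 16 well-counted ones none passed 2-fold, and their median was -0.33. PSBX, a small subunit of photosystem II, was among the 2 higher rows, with 34.3 FPKM in miR164OE and 9.65 FPKM in WT. It had about 3.4 fragments in WT and was not well counted.

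All 6 shoot markers were above 0 in both libraries, with own rows summing to 513 FPKM in miR164OE and 634 FPKM in WT. Single markers ranged over 21.1 to 160 FPKM in miR164OE and over 19.7 to 178 FPKM in WT. Of 7 root markers, 5 were at 0 in miR164OE and 6 in WT, and they summed to 5.41 FPKM in miR164OE and 7.21 FPKM in WT. COBL9, EXPA7, NRT2.1 and RHD6, which mark root hairs and root nutrient uptake, were at 0 in both. Of 5 seed storage markers, 1 was above 0 in miR164OE, at 10.8 FPKM, and none in WT. Of 4 flower and pollen markers, the floral homeotic gene PI had 8.93 FPKM in miR164OE and 23.2 FPKM in WT, and the others were at 0. All marker values are from own rows. PSAG's own row had 34.3 FPKM in miR164OE and 19.7 FPKM in WT, far under the row opposite it. A 0 on an own row is therefore not read as a missing tissue, nor the sums as a difference in shoot share. The part of tissue makeup in the differences was not tested.

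Among defence and secondary metabolism genes, the widest differences read for the defence list were on noncoding rows opposite its genes. These rows had under 300 bases and were listed at 0 in WT. AT3G09495, whose longest overlap of 90 bases is with the methyltransferase gene AT3G60910, had 134 FPKM in miR164OE. AT1G09067, opposite the disease resistance gene AT1G69550, had 53.0 FPKM in miR164OE. Longer rows were also named after their values were seen. CYP71A13, a cytochrome P450 of camalexin synthesis, had 47.2 FPKM in miR164OE and 15.1 FPKM in WT, and after heat 37.7 FPKM in miR164OE and 115 FPKM in WT. Another gene overlaps it on the opposite strand over 330 bases. PRR2, a pinoresinol reductase of lignan synthesis with no overlapping gene, had 48.3 FPKM in miR164OE and 105 FPKM in WT. The methyl esterase gene MES6 had 38.5 FPKM in miR164OE and 14.6 FPKM in WT. AT1G11330, an S-locus lectin receptor kinase, had 32.2 FPKM in miR164OE and 12.01 FPKM in WT. JAL35, a jacalin-type lectin whose row faces JAL34 over 631 bases, was just short of 2-fold with 526 FPKM in miR164OE and 266 FPKM in WT. Over the defence list, own rows had a median of 0.00 with 2 of 25 higher and 0 lower, and rows opposite these genes 0.26 with 5 of 24 higher and 2 lower. The shares over all rows were 8.41% and 7.93%. Among the 16 well-counted opposite rows 0 were higher and 1 was lower, with a median of 0.14.

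Metal-binding, translation and organelle genes gave single rows past 2-fold. MT3, a metallothionein, had 77.0 FPKM in miR164OE and 185 FPKM in WT, but 97.4 FPKM in miR164OE and 45.2 FPKM in WT after heat. MT1A, another metallothionein of 138 exon bases, was listed at 0 in miR164OE and at 267 FPKM in WT, and at 0 in both heated libraries. RPS15A, a protein of the small cytosolic ribosomal subunit, had 25.4 FPKM in miR164OE and 63.2 FPKM in WT on about 12 and 29 fragments. PDV2, which recruits the plastid division machinery, had 40.6 FPKM in miR164OE and 16.1 FPKM in WT. Of 11 organelle rows, 5 passed 2-fold, against 16.3% of all rows. The plastid ribosomal protein gene RPS14 had 58.1 FPKM in miR164OE and was listed at 0 in WT, while RPS18 had 18.4 FPKM in miR164OE and 38.05 FPKM in WT. The mitochondrial open reading frame ORF116 had 45.2 FPKM in miR164OE and 17.0 FPKM in WT. ORF240A had 11.8 FPKM in miR164OE and 39.0 FPKM in WT, and ORF105B was at 0 in miR164OE and at 53.1 FPKM in WT.

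The other gene groups, chosen by words of the product names, had medians on either side of the 0.02 over all rows. Own rows of 72 kinases had a median of 0.07 with 3 higher and 0 lower, against 8.41% higher and 7.93% lower over all rows. The 69 rows opposite kinases had 0.08 with 6 higher and 4 lower, but 5 of them were listed at 0 in 1 library, and among the 49 well-counted ones 2 were higher and 1 lower. Own rows of 34 ubiquitin and proteasome genes had a median of 0.16, and 40 opposite rows -0.02. Heat shock proteins and chaperones had 0.06 over 16 own rows and 0.07 over 18 opposite rows, and cytochromes P450 had 0.09 over 24 own rows and -0.31 over 9 opposite rows. Tubulin and actin genes had -0.40 over 4 own rows, ribosomal proteins 0.23 over 12 own rows, and translation factors -0.26 over 5 opposite rows. Rows opposite redox enzymes stood at 0.51 with 5 of 15 higher and 0 lower, but 2 of the 5 were listed at 0 in WT, and the 8 well-counted rows had -0.10. Own rows of 4 carbon fixation genes had -0.38. The 4 rows opposite such genes had 0.58, but only 1 of them was well counted, at 0.22.

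**Figure D5:**
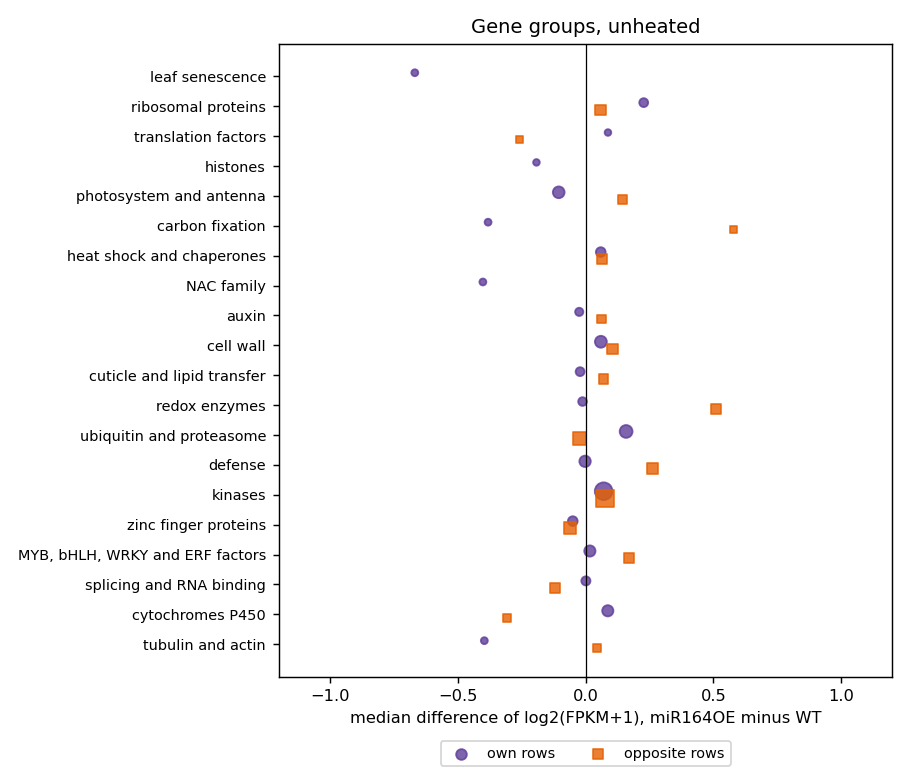
Points are the median difference of log2(FPKM + 1), miR164OE minus WT, for gene groups with at least 3 rows, read from the genes' own rows (circles) and from rows on the opposite strand (squares), with area growing with the number of rows. Most lie within 0.5 of 0. Own and opposite readings of carbon fixation have different signs, on 4 rows each, and only 1 of the opposite rows is well counted.

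Several well-counted noncoding rows also passed 2-fold. AT1G04097, a long noncoding RNA of 319 bases, had 227 FPKM in miR164OE and 32.5 FPKM in WT, on about 36.8 and 5.14 fragments. AT3G02455, of 1000 bases and opposite a LETM1-like gene over 323 of them, had 181 FPKM in miR164OE and 44.0 FPKM in WT. After heat it was listed at 0 in miR164OE and at 33.6 FPKM in WT. AT1G08047, of 330 bases, had 28.8 FPKM in miR164OE and 288 FPKM in WT, the widest difference of the well-counted lower rows at -3.28, on about 4.83 and 47.1 fragments. AT4G04865, of 540 bases and with no gene overlapping it, had 44.7 FPKM in miR164OE and 271 FPKM in WT. The row AT1G05147, opposite the glutamine amidotransferase-like gene GAT1_2.1 over 553 bases, had 685 FPKM in miR164OE and 1438 FPKM in WT on about 192 and 394 fragments. GAT1_2.1's opposite row stood at a difference of 0.05 after heat.

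The most extreme differences by the rule alone were on short rows at 0 in 1 library. The 10 highest were all listed at 0 in WT, and the 10 lowest all at 0 in miR164OE, with 94 to 335 exon bases. The highest, AT4G06245, a small nucleolar RNA of 94 bases, had 6564 FPKM in miR164OE and was listed at 0 in WT and in both heated libraries. AT3G04685, opposite the heat-stress coactivator gene MBF1C, had 488 FPKM in miR164OE and 0 in WT, but 717 FPKM in miR164OE and 1371 FPKM in WT after heat. AT1G05323, opposite PEPR2, a receptor for danger peptides, had 371 FPKM in miR164OE and 0 in WT. The lowest, AT3G08605, an annotated small nuclear RNA of 101 bases, was at 0 in miR164OE and at 1587 FPKM in WT, and after heat at 577 FPKM in miR164OE and at 0 in WT. Cufflinks estimates on rows this short are the least certain, and no fold is given against 0.

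Rows that no other gene overlaps were also counted alone. Of 602 such rows 36 were higher and 38 lower in miR164OE, 12.3% in all, against 16.3% of all 2308 rows. Among the 420 well-counted ones 4.76% passed 2-fold, against 4.95% of all well-counted rows. The 5 highest of the 602, among them AT4G24410 with 65.4 FPKM, were all listed at 0 in WT. The 5 lowest, among them AT1G78190, a Trm112p-like protein gene with 81.9 FPKM in WT, were all listed at 0 in miR164OE. At the 20 FPKM limit, TAF4B, AT1G05607 and AT4G21500 were just inside, with means of 20.01 to 20.02 FPKM, and AT1G50040, AT1G63850 and AT2G11035 were just outside, with means of 19.98 to 19.99 FPKM. AT1G05607 was inside with 40.02 FPKM in miR164OE and 0 in WT.

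The heated pair gave a second reading of the genotypes from libraries that the rule did not use. Of the 38 well-counted rows higher in miR164OE at 22 °C, 8 were at least 2-fold higher in miR164OE at 35 °C and 7 at least 2-fold lower, against 2.83% higher and 3.99% lower, 6.82% in all, over the 1554 rows. Their median heated difference was 0.23, against -0.15 over all. Of the 39 rows lower at 22 °C, 2 were at least 2-fold lower at 35 °C and 5 at least 2-fold higher, with a median of 0.14. Across the 1554 rows the differences at both temperatures correlated with Pearson's r = 0.08 and Spearman's rho = 0.04, a description over rows that share the same 4 libraries. Besides the 2 rows opposite AIR1B and AIR1, those higher in both pairs included AT5G01295, opposite PRA1.B6, with 684 FPKM in miR164OE and 267 FPKM in WT and a heated difference of 1.02. AT5G03195, opposite the chloroplast co-chaperonin gene CPN20 over 211 bases, had 183 FPKM in miR164OE and 88.6 FPKM in WT, with a heated difference of 1.56.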

How the data were processed

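RNA from whole seedlings was sequenced in 4 libraries, and the 2 unheated ones, 1 per genotype, are compared here. Libraries were made from Trizol-extracted RNA with the strand-specific SureSelect kit of Agilent (labels' protocols). In the table that the authors deposited the values are FPKM. It was made with bcl2fastq 2.1.7, TopHat and Cufflinks on TAIR10, per the submitters' processing notes. Other versions, the depth and the strand setting were not given in the sources used here.

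From these values, log2(FPKM + 1) in miR164OE minus that in WT was computed with Python 3.11.15 and pandas 2.3.3 for rows averaging 20 FPKM or more and with a locus of at least 300 bases. The values were not normalized further, and 1 library per group allowed no test or p-value. Of the 2308 rows, 2297 were matched by locus code to the TAIR10.1 RefSeq annotation, which gave exon lengths, gene types and strand overlaps; the other 11 are organelle rows. For 1552 rows the deposited locus is wider than the annotated gene. Fragments per row were estimated from the commonest product of FPKM and exon length among low rows of 800 to 2500 bases; they are approximate and cover counting error only.

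The members and gene lists were chosen with earlier results of these data known. Named were the miR164 genes, the 10 highest and 10 lowest nuclear rows, the 5 highest and 5 lowest without an overlapping gene, the 6 highest levels, organelle rows past 2-fold and the 2 widest differences of each list with at least 3 rows. The well-counted rows, the chromosome 4 group, the extensins and other genes named were chosen after values were seen. The 2-fold rule was run on simulated counts with changes wider than 2-fold, on rows of at least 300 exon bases. Only counting error was simulated, so the run says nothing on variation between libraries or on shorter rows. Pseudocounts, fragment, level and length minimums, 3 scalings and overlap classes were varied.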

Additional observations from a re-analysis of the deposited data

Results flagged for a closer look

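Of the 77 well-counted rows past 2-fold at 22 °C, 12 passed 2-fold in the opposite direction between the heated miR164OE and WT libraries. In the same direction there, 8 of the 38 higher rows and 2 of the 39 lower rows passed 2-fold. Over all well-counted rows, 2.83% were at least 2-fold higher in heated miR164OE and 3.99% lower, 6.82% in all. With 1 library per group none of these differences between temperatures was tested. For each row the difference of log2(FPKM + 1), miR164OE minus WT, is given unheated and then heated. Higher in miR164OE unheated and lower heated were CYP71A13 (AT2G30770) at 1.58 and -1.59, WRKY53 (AT4G23810) at 1.12 and -1.29, AT1G26255 opposite an extensin-like gene at 1.04 and -2.10, and AT1G06730, a pfkB-like carbohydrate kinase, at 1.19 and -1.34. AT5G16030 stood at 1.45 and -2.09. The noncoding rows AT3G02455 at 2.02 and -5.11 and AT1G06083 at 1.1 and -5.84 belong here too. Both were listed at 0 in heated miR164OE, against 33.6 FPKM for AT3G02455 and 56.4 FPKM for AT1G06083 in heated WT. The size of their heated differences therefore depends on the pseudocount. Lower unheated and higher heated were MT3 (AT3G15353) at -1.26 and 1.09, the lipid-transfer gene AT4G22470 at -1.08 and 1.26, SCRL7 (AT1G60989) at -1.80 and 1.06, and AT1G04893 at -1.18 and 1.02. AT4G14120, whose row faces the xyloglucan-modifying gene XTH15 over 382 bases, stood at -1.06 and 2.79.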

How the results depend on the processing

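No paired analysis was possible because each group had 1 library. Counts of rows at least 2-fold higher and lower in miR164OE, 194 and 183 as reported, moved with the rows admitted. They were 310 and 312 with a mean of at least 10 FPKM, 95 and 93 at 50 FPKM, 59 and 49 at 100 FPKM, 2602 and 2940 with no minimum, and 36 and 38 without overlapping genes. In alternatives chosen after seeing the data they were 60 and 60 with at least 40 estimated fragments, 120 and 106 with at least 300 exon bases, 38 and 39 with both limits, and 127 and 131 above 0 in both libraries. The median difference of 0.02 became -0.0367 with no minimum and -0.0433 with nuclear rows scaled to a common sum, which shifted miR164OE by -0.06 on the log2 scale, so the sign of a median this near 0 depends on the scaling. Other pseudocounts, length minimums and scalings left both counts within 1.5 times. No named row past 2-fold changed sign, and 21 of 745 recomputed values of the 150 named rows above the minimum crossed 2-fold, 13 of them with a pseudocount of 5 FPKM. A 2-fold difference on a few estimated fragments was not resolvable.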
